A study of Mus musculus with 4 samples.

Results

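The nuclear genes for subunits of the oxidative phosphorylation system were followed across 4 sorted subsets of mouse CD8 T cells. Members were taken by symbol: every non-control probe whose RefSeq name began with Ndufa, Ndufb, Ndufc, Ndufs, Ndufv, Uqcr, Atp5 or Cox4 to Cox8, or was Sdha, Sdhb, Sdhc, Sdhd or Cyc1, without the Ndufaf assembly factors and without pseudogenes. This gave 85 genes of the 22911 that were named on the array, measured by 105 of its 56605 probes; the gene table lists 89 genes with such a symbol. They comprised 38 genes named for complex I, 4 of complex II, 9 of complex III, 17 of complex IV and 17 of complex V. Ndufb1, Cox5b, Ndufb4b and Ndufb4c had no probe named for them here.

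The cells came from PD-1-/- mice of the C57BL/6 strain, untreated and 1 to 3 months old, and were sorted by flow cytometry out of spleen and lymph node. P4 was CD44low CD62Llow, the low-low subset. P3 was CD44high CD62Llow, as effector and effector memory cells are. P2, CD44high CD62Lhigh, had a central memory phenotype. P1, CD44low CD62Lhigh, had a naive phenotype. All 4 subsets shared the loss of PD-1, the inhibitory receptor encoded by Pdcd1, so that no wild-type cells were compared. Each subset was 1 array of total RNA, and all 4 arrays lay on 1 slide. How many mice stand behind an array, and whether they were pooled, is not stated in the labels. With 1 array per subset there was no replicate check and no test of any difference, and subset and array position cannot be told apart.

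Oxidative phosphorylation takes place in the inner mitochondrial membrane. Complexes I and II pass electrons from NADH and succinate to ubiquinone, complex III passes them on to cytochrome c, and complex IV passes them to oxygen. Complexes I, III and IV pump protons, and complex V, the ATP synthase, uses the gradient to make ATP. Most subunits are encoded in the nucleus, and a small set in mitochondrial DNA, for which no probe was named here. Naive and memory T cells are known to draw most of their ATP from this system, whereas activated effector cells add a high rate of glycolysis.

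A level is the log2 of a probe's processed signal divided by the 75th percentile of its array, and a difference is a level minus another level of the same probe. Repeated spots of a probe within an array gave a 95% half-width of 0.18 for a difference between arrays at levels of 0 or more, 0.29 at levels of -3 to 0 and 0.61 below -3. This covers spot noise only. The 75th percentile itself was 453 in P4, 799 in P3, 480 in P2 and 481 in P1, and 0 spots were saturated. The transcript of the sorting marker CD44, Cd44, had levels of -1.24 in P4, 2.11 in P3, 2.26 in P2 and -1.80 in P1, so that both CD44high subsets lay above both CD44low subsets. Pdcd1 had levels of 1.70 in P4, 1.76 in P3, -3.06 in P2 and -3.30 in P1, and where its probe lies relative to the deleted part was not examined, so it does not check the genotype. All 8 T cell markers on the array were well above background in every subset. The P3 array also carried transcripts of antigen-presenting cells. Of 11 markers of dendritic cells and class II, 6 were well above background in P4, 11 in P3, 6 in P2 and 3 in P1, and their summed signal was 7.59 times the 75th percentile in P4, 220 times in P3, 7.02 times in P2 and 2.0 times in P1. Of 8 macrophage and monocyte markers, 5 were above background in P4, 7 in P3, 5 in P2 and 3 in P1, with summed signals of 2.92, 27.9, 3.26 and 2.48. Proliferation genes had a median level of -0.09 in P4, 1.98 in P3, 0.05 in P2 and -1.26 in P1. The part of other cells in the values of P3 was not tested, and in these bulk RNAs a smaller share of cells with a transcript and less of it per cell cannot be told apart.

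The transcripts of the respiratory chain lay within a narrow band across the 4 subsets. Of the 85 genes, 81 were well above background on all 4 arrays and 4 were not well above background on any. In 7 of the 81 the highest and the lowest array lay at least 1.5-fold apart, against 41.3% of the 11836 genes measured on all 4 arrays. At 2-fold the count was 2 of 81, against 18.4% of all genes. The median range over the arrays was 0.28 on the log2 scale, against 0.50 for all genes. High signal alone went with part of this, since among genes with a mean level of 3 or more the share at 1.5-fold was 31.3% of 2721, beside 6 of 70 members. Cox6a2, Cox7a2l, Atp5mpl, Uqcrfs1, Ndufb11, Ndufa5 and Ndufa6 were the 7 genes. Ndufa6 (range 0.60) and Ndufa5 (0.61) lay just inside the limit, and Atp5l (0.57) and Ndufb4 (0.53) just outside it.

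The scaling moved the count but not its place beside all genes. It was 4 of 81 (4.94%) after scaling to the median, against 40.3% of all genes, and 4 of 81 after normexp background correction, against 35.3%. Quantile normalization gave 3 of 81 (3.70%), against 40.0%, and the authors' processed values gave 2 of 81 (2.47%), against 38.6%. Cox6a2 was in every one of these counts. Cox4i1 and Ndufa13 were in the count after quantile normalization only, and Cox7a1 in that from the authors' values only. Without the P3 array the count was 1 of 81, Cox6a2, against 20.3% of all genes at 1.5-fold and 8.69% at 2-fold.

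**Figure D1:**
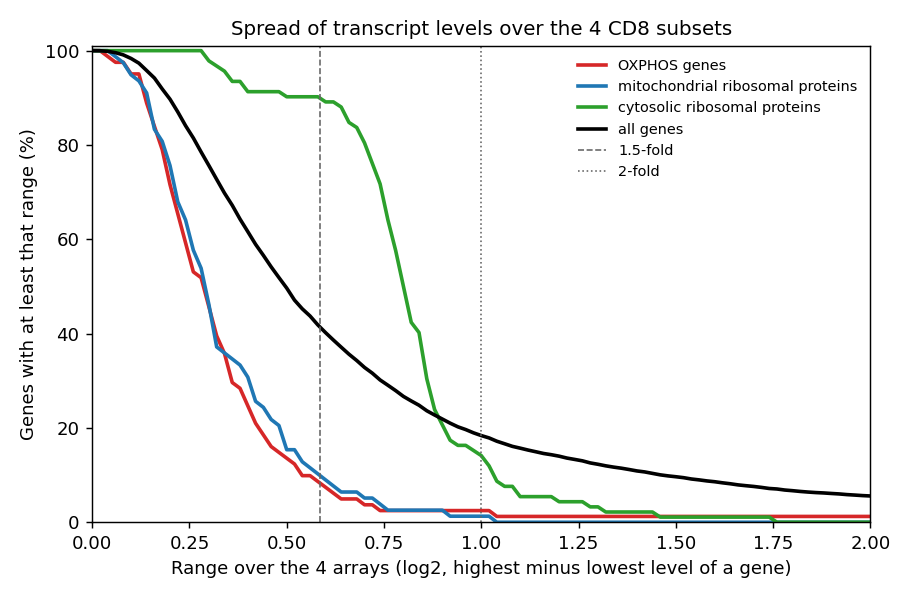
Share of genes (%, vertical axis) whose highest and lowest array differed by at least the log2 range on the horizontal axis, for OXPHOS genes, mitochondrial ribosomal proteins, cytosolic ribosomal proteins and all genes above background on all 4 arrays. At 1.5-fold (dashed line) the OXPHOS curve stands at 8.64%, mitochondrial ribosomal proteins at 10.3%, cytosolic ribosomal proteins at 90.2% and all genes at 41.3%.

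Mitochondrial and cytosolic ribosomal proteins set a scale for this. Of 78 mitochondrial ribosomal proteins, which serve the translation of the subunits encoded in mitochondrial DNA, 8 spanned 1.5-fold (10.3%), with a median range of 0.30. Of 92 cytosolic ribosomal proteins 83 did (90.2%), with a median range of 0.80. The P3 array accounted for most of that count, since without it 4 of the 92 did. After quantile normalization the median difference of P3 minus P1 was -0.01 for cytosolic ribosomal proteins, against -0.79 under scaling by the 75th percentile, so that their displacement held under only some of the scalings.

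Most members had their lowest level on the P3 array. The lowest array was P4 for 16 of the 81, P3 for 52, P2 for 8 and P1 for 5. P3 was thus the lowest for 64.2% of the members, beside 44.0% of all genes. The highest was P4 for 11, P3 for 12, P2 for 17 and P1 for 41. The highest array was not counted over all genes. Their medians also lay below P1, at -0.06 for P4, -0.06 for P2 and -0.11 for P3 minus P1. The median difference of P3 minus P1 was -0.21 for members and -0.11 for all genes, so that members lay 0.10 below the shift of all genes. For P3 minus P2 the medians were -0.15 for members and -0.05 for all genes. These directions depended on the scaling. After quantile normalization the median of the members was 0.04 for P3 minus P1 and 0.09 for P3 minus P2, and in the authors' processed values it was 0.04 and 0.08. P3 was then the lowest array for 25 and 23 of the 81 members, which is 30.9% and 28.4%, beside 39.2% and 33.4% of all genes, so that members no longer had P3 lowest at a higher share than all genes. Scaling to the median and normexp kept the sign of both medians below 0. Under normexp, however, members hardly differed from all genes. Their medians were -0.135 beside -0.131 for P3 minus P1, and -0.084 beside -0.076 for P3 minus P2.

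**Figure D2:**
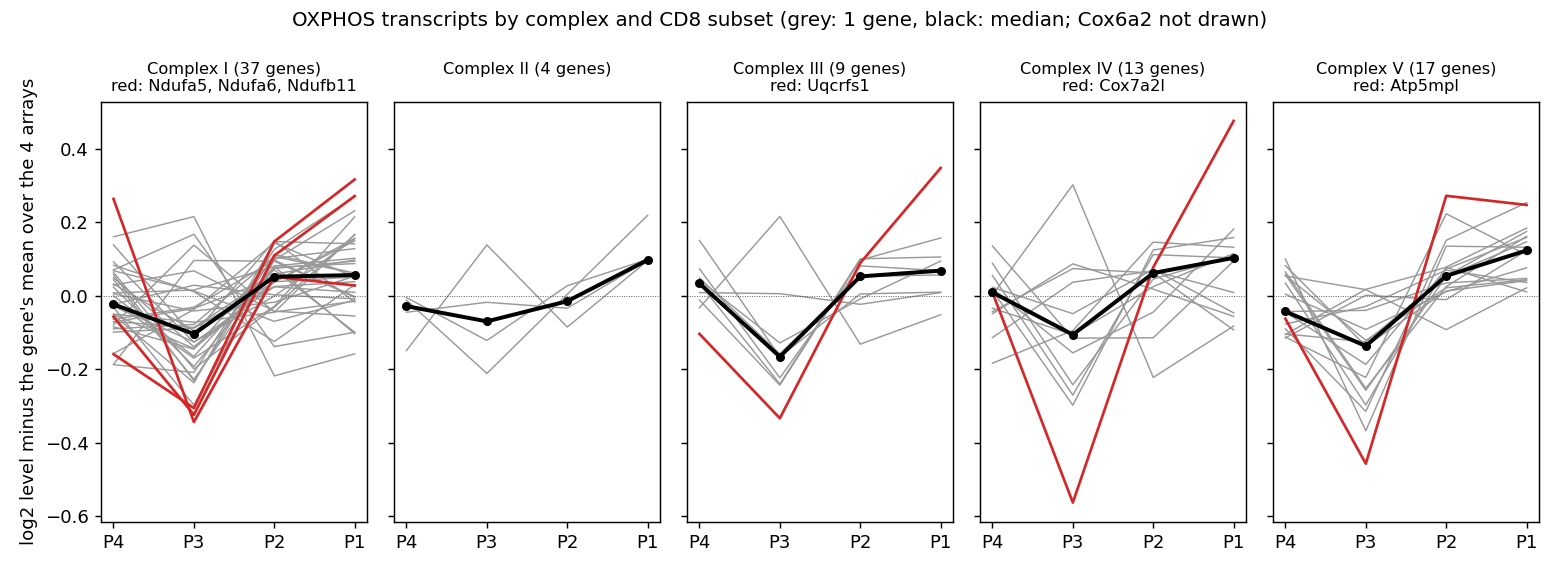
Level of each gene minus its own mean over the 4 arrays (log2, vertical axis) in P4, P3, P2 and P1 (horizontal axis), with a panel for each complex and a grey line for each gene, red where it spans at least 1.5-fold; the black line is the median. The black lines are at their lowest in P3 in all 5 panels, and Cox6a2, whose range is 5.90, is left out.

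The dip in P3 under the scaling by the 75th percentile was shared by the complexes. Median differences of P3 minus P1 were -0.18 in complex I, -0.17 in complex II, -0.22 in complex III, -0.22 in complex IV and -0.30 in complex V. After quantile normalization the medians of complexes IV and V were 0.25 and 0.12, and that of complex I was -0.04. Gene by gene, 16 of 81 members were higher and 30 lower in P3 than in P1 under all 5 scalings, and 35 changed sign. Signs over the scalings were counted for members only, so no share of all genes stands beside these counts. In complex V, 14 of 17 changed sign. Members lower in P3 under every scaling included Uqcrfs1, Atp5mpl, Ndufb11 and Ndufb4, and members higher under every scaling included Cox6a2, Cyc1, Ndufb7 and Ndufab1.

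**Figure D3:**
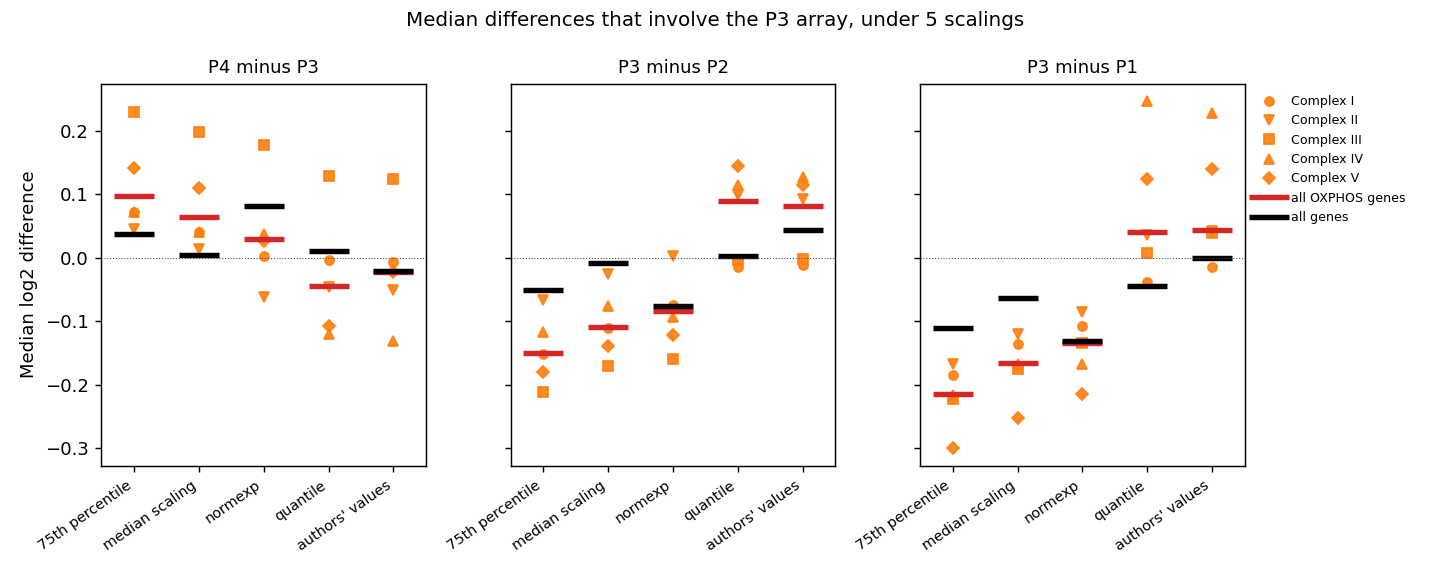
Median log2 difference (vertical axis) for P4 minus P3, P3 minus P2 and P3 minus P1 under 5 scalings (horizontal axis), for each complex (orange), all OXPHOS genes (red bar) and all genes (black bar). The red bar for P3 minus P1 lies at -0.21 with the 75th percentile and at 0.04 with quantile normalization, and complex III is the only complex above 0 in P4 minus P3 under all 5.

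The arrays were also set side by side by each sorting marker, as P4 and P3 (CD62Llow) with P2 and P1 (CD62Lhigh), and as P3 and P2 (CD44high) with P4 and P1 (CD44low). The subsets of a pair are different cells and not replicates. By CD62L, 6 of the 81 members had both CD62Llow arrays above both CD62Lhigh arrays, where 17.9% of all genes did, and 41 had both below, where 29.3% did. The scaling turned this balance round, with 27 members above and 11 below after quantile normalization, beside 22.5% and 23.9% of all genes, and 26 above and 11 below in the authors' values, beside 24.6% and 21.3%. The order held under all 5 scalings for 5 members above, Ndufab1, Ndufb7, Ndufs7, Ndufs8 and Cox7a1. It held for 11 members below, which were Ndufa10, Ndufa6, Ndufa8, Ndufb10, Ndufb11, Ndufb3, Ndufb4, Ndufv1, Uqcrfs1, Cox4i2 and Atp5mpl. How many of all genes kept their order under all 5 scalings was not counted. The nearest arrays of the 2 pairs were apart by -0.31 for Ndufb10, Ndufb11 and Atp5mpl, 0.32 for Ndufab1 and 0.17 for Ndufb7. The gap of Ndufb7 lay within the spot noise of 0.18. So did those of Ndufa6 (-0.17), Ndufb4 (-0.13), Ndufv1 (-0.09), Ndufs8 (0.07), Ndufa8 (-0.03) and Ndufs7 (0.03). At their lower levels Cox4i2 (-0.23) and Cox7a1 (0.085) lay within the spot noise of 0.29.

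By CD44, 8 members had both CD44high arrays above both CD44low arrays, where 11.6% of all genes did, and 17 had both below, where 22.1% did. Under all 5 scalings 5 stayed above, Ndufb9, Cox6a2, Cox6b1, Cox7c and Atp5k, and 3 stayed below, Ndufs5, Cox6b2 and Cox6c. Here too the share of all genes that stayed was not counted. Cox6a2 aside, the gap between the pairs of arrays was at most 0.10 among those above, and it was -0.21 for Cox6b2, -0.10 for Ndufs5 and -0.06 for Cox6c among those below. Such gaps lie within the half-width of spot noise for a single difference. A second, dimmer probe of Cox7c did not share the order of the first. It was at 1.612 in P4, 1.609 in P3, 1.602 in P2 and 1.918 in P1.

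The low-low subset differed little from the naive phenotype. None of the 81 members was 1.5-fold apart between P4 and P1 in either direction, where 9.28% of all genes were at least 1.5-fold higher and 6.25% lower in P4. Members had a median difference of P4 minus P1 of -0.09, with 22 above and 59 below 0. For all genes the median was -0.06, with 5543 of 13160 above and 7617 below 0. Under quantile normalization the median of the members was 0.03 and in the authors' values 0.04, so that no direction of the whole set was settled. The interquartile range of the members' differences was 0.21, against 0.42 for all genes. Under all 5 scalings 15 members were higher and 31 lower in P4, a count not made over all genes.

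Some members of complex I stood at the ends of the comparison of P4 with P1. Ndufb11, an X-linked accessory subunit of the membrane arm, had levels of 5.38 in P4, 5.23 in P3, 5.68 in P2 and 5.85 in P1. Its difference of -0.48 for P4 minus P1 lay between -0.48 and -0.30 over the scalings. Ndufb10, another accessory subunit of the membrane arm, had levels of 4.90, 4.88, 5.21 and 5.36 in P4, P3, P2 and P1, with both CD62Llow subsets below both CD62Lhigh subsets. Its difference of P4 minus P1 was -0.46, and -0.34 at the smallest over the scalings. Opposite to these, Ndufa12, an accessory subunit of the peripheral arm, was at 4.46 in P4, 4.21 in P3, 4.39 in P2 and 4.22 in P1, a difference of 0.24 for P4 minus P1. Ndufab1, the mitochondrial acyl carrier protein, which is a subunit of complex I and also serves lipoic acid synthesis, was at -0.72 in P4, -0.66 in P3, -1.10 in P2 and -1.04 in P1. Both CD62Llow subsets lay above both CD62Lhigh subsets for Ndufab1, and the difference of P4 minus P1 was 0.32, between 0.21 and 0.34 over the scalings.

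Between P4 and the central memory phenotype the set was as tight. For P4 minus P2 the median was -0.05 for members and 0.01 for all genes. Of the members 0 were 1.5-fold higher in P4 and 1 was lower, Cox6a2 at -0.70, where 9.16% of all genes were higher and 7.99% lower. Under normexp this difference of Cox6a2 was -0.24 and the count 0, and the half-width of spot noise at its level was 0.61. Ndufab1 was the member with the highest difference, at 0.38. Atp5g2 and Atp5mpl, both of complex V, were at -0.34 and -0.33. For Atp5g2 the difference stood on levels of 6.49 in P4, 6.38 in P3, 6.82 in P2 and 6.71 in P1. It was -0.06 after quantile normalization and -0.10 in the authors' values, within spot noise.

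The comparison of P4 with P3, which share low CD62L, was the widest of the 3 for the low-low subset, with an interquartile range of 0.26 for members and 0.61 for all genes. Members had a median of 0.10 for P4 minus P3, with 56 above and 25 below 0. For all genes the median was 0.04, with 7461 of 13988 above and 6527 below 0. Quantile normalization turned the median of the members to -0.04 and the authors' values turned it to -0.02. Of the members 1 was at least 1.5-fold higher in P4, Ndufa5, and 1 lower, Cox6a2, where 11.9% of all genes were higher and 14.7% lower. Ndufa5, an accessory subunit of the peripheral arm, had levels of 5.03 in P4, 4.42 in P3, 4.82 in P2 and 4.79 in P1. Its difference of 0.61 for P4 minus P3 was 0.44 under normexp, the smallest of the 5 scalings. Atp5e, the epsilon subunit of the ATP synthase stalk, was at 6.29 in P4, 5.82 in P3, 6.32 in P2 and 6.32 in P1, so that P3 stood apart from the other arrays under this scaling, whereas P3 minus P1 was 0.04 after quantile normalization. Its difference of 0.47 for P4 minus P3 was 0.15 at the smallest over the scalings.

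Complex III was the complex in which P4 and P3 differed most in the median, at 0.23. Over the scalings this median stayed between 0.12 and 0.23, and 6 of 9 members were higher and 1 was lower in P4 under all of them. Uqcrc1, a core subunit, had levels of 4.41 in P4, 4.09 in P3, 4.27 in P2 and 4.27 in P1, with P4 the highest array, and P4 minus P3 was above 0 under all 5 scalings. Uqcrh, the hinge protein that docks cytochrome c1 with cytochrome c, was at 6.91 in P4, 6.67 in P3, 7.01 in P2 and 7.07 in P1, and its difference of P4 minus P3 was 0.23, but -0.24 after quantile normalization. Cyc1, cytochrome c1 itself, went the other way, with levels of 3.78 in P4, 4.03 in P3, 3.68 in P2 and 3.76 in P1. Its difference was -0.25 for P4 minus P3 and 0.27 for P3 minus P1, and both signs held under all 5 scalings.

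Uqcrfs1, the Rieske iron-sulfur protein of complex III, ordered the subsets more widely than its partners. Its levels were 3.78 in P4, 3.55 in P3, 3.97 in P2 and 4.23 in P1. P3 minus P1 was -0.68, and between -0.68 and -0.52 over the scalings, and P4 minus P1 was -0.45. Its spot on the P1 array lay in an area that was locally bright on that array, and the part of that in its P1 level was not tested. Uqcrc2, the other core subunit, had levels of 4.48 in P4, 4.48 in P3, 4.45 in P2 and 4.48 in P1, a range of 0.03, the smallest of the 81 members under this scaling. After quantile normalization its P3 minus P1 was 0.21.

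Complex I passes its electrons along core subunits that carry a flavin and iron-sulfur clusters, and the median range over all its members was 0.26. Ndufv2, an iron-sulfur subunit at the NADH-binding tip, had levels of 3.73 in P4, 3.79 in P3, 3.76 in P2 and 3.75 in P1. Ndufs7 and Ndufs8, which carry the last iron-sulfur clusters before ubiquinone, had ranges of 0.14 and 0.12. Among other core subunits the ranges were 0.21 for Ndufs1, 0.24 for Ndufs3 and 0.30 for Ndufv1, the flavin-binding subunit. All 3 complex I genes that spanned 1.5-fold, Ndufb11, Ndufa5 and Ndufa6, encode accessory subunits, as do most of the 37 that were measured. None of these 3 spanned 1.5-fold after median scaling, normexp or quantile normalization, or in the authors' values. Ndufa6, a small protein that binds the acyl carrier protein, had levels of 5.46 in P4, 5.19 in P3, 5.63 in P2 and 5.79 in P1. Its difference of P3 minus P1 was -0.60 and stayed between -0.60 and -0.28 over the scalings. Ndufb7, a membrane arm subunit, was at 5.07 in P4, 5.17 in P3, 4.86 in P2 and 4.90 in P1, so that both CD62Llow subsets lay above both CD62Lhigh subsets. Ndufa4 carries a complex I symbol but is now counted as a subunit of complex IV, and had levels of 3.71 in P4, 3.83 in P3, 4.02 in P2 and 3.92 in P1.

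Complex II, succinate dehydrogenase, also belongs to the tricarboxylic acid cycle. Sdha, its flavoprotein, had levels of 4.21 in P4, 4.01 in P3, 4.22 in P2 and 4.44 in P1, with P1 the highest array. Sdhb, the iron-sulfur subunit, was at 5.03, 4.92, 5.06 and 5.14 in P4, P3, P2 and P1. A second, dimmer Sdhb probe did not share this order. It was at 2.963, 3.138, 3.052 and 3.115 in P4, P3, P2 and P1, with P3 highest and not lowest. The membrane anchors differed in their order. Sdhc was at 2.32 in P4, 2.61 in P3, 2.38 in P2 and 2.57 in P1, and Sdhd at 3.86, 3.88, 3.87 and 4.0. The range of Sdhd, 0.14, lay within the spot noise of 0.18. For P2 minus P1 all 4 genes were below 0 under all 5 scalings, with a median of -0.16.

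Complex V had no member that was 1.5-fold apart other than Atp5mpl. Atp5mpl encodes a small proteolipid at the membrane part of the ATP synthase, and its levels were 5.09 in P4, 4.70 in P3, 5.43 in P2 and 5.40 in P1. Both CD62Llow subsets lay below both CD62Lhigh subsets. P3 minus P2 was -0.73, between -0.73 and -0.49 over the scalings, and P4 minus P2 was -0.33, between -0.38 and -0.21. The catalytic subunits Atp5a1 and Atp5b had ranges of 0.41 and 0.41, with P3 as the lowest array for both. Quantile normalization turned this round, with P3 minus P1 at 0.28 for Atp5a1 and 0.30 for Atp5b and P3 the highest array. Atp5c1, the central stalk, was at 5.92 in P4, 5.90 in P3, 6.08 in P2 and 6.20 in P1, and Atp5d was at 4.09, 3.91, 4.05 and 4.08.

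The ring of c subunits is encoded by 3 genes that give the same mature protein. Atp5g1 had levels of 5.01 in P4, 4.79 in P3, 4.94 in P2 and 4.97 in P1. Atp5g3 was at 5.82 in P4, 5.49 in P3, 5.86 in P2 and 5.97 in P1. Both had their lowest level in P3, as had Atp5g2 above, though P3 minus P1 was 0.07 for Atp5g1 and 0.39 for Atp5g2 after quantile normalization. Under the scaling by the 75th percentile the highest array was P4 for Atp5g1, P2 for Atp5g2 and P1 for Atp5g3. For Atp5g1, P4 lay above P1 by 0.04 and above P2 by 0.07, within the spot noise of 0.18. Under normexp P4 minus P1 was -0.11 and P4 minus P2 was -0.13. On a second Atp5g1 probe P2 was the highest array, at 3.48, with P4 at 3.42. Ranges were 0.22, 0.45 and 0.48 for Atp5g1, Atp5g2 and Atp5g3.

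Complex IV held the 2 genes that spanned 2-fold, and they went opposite ways. Cox7a2l, a protein related to the Cox7a subunits that joins complex III to complex IV in supercomplexes, is known to be shortened in the C57BL/6 strain. Its levels were 6.91 in P4, 6.34 in P3, 6.98 in P2 and 7.38 in P1, with P1 alone at the top and P3 alone at the bottom. The differences were -1.04 for P3 minus P1, -0.47 for P4 minus P1 and -0.40 for P2 minus P1. Over the scalings P3 minus P1 lay between -1.04 and -0.28 and P4 minus P1 between -0.47 and -0.16, and P2 minus P1 stayed between -0.40 and -0.36. P3 minus P2, at -0.64, turned to 0.10 after quantile normalization. Of the widely expressed subunits, which surround a core encoded in mitochondrial DNA, Cox5a was at 5.59 in P4, 5.52 in P3, 5.64 in P2 and 5.52 in P1. Cox4i1 was at 6.07 in P4, 6.22 in P3, 6.25 in P2 and 6.20 in P1. For Cox4i1 the difference of P3 minus P1 was 0.03, but 0.68 after quantile normalization and 0.57 in the authors' values.

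Cox6a2 had the widest range of all members. It encodes the heart and skeletal muscle isoform of subunit VIa, a regulatory subunit of complex IV, and its levels were -3.96 in P4, 1.53 in P3, -3.26 in P2 and -4.37 in P1. All 4 values were well above background, and P3 stood far above the other arrays. The difference was 5.90 for P3 minus P1, 4.79 for P3 minus P2 and -5.49 for P4 minus P3. P3 minus P1 lay between 4.21, under normexp, and 6.06, in the authors' values. Among the dimmer arrays P2 minus P1 was 1.11, beside a half-width of spot noise of 0.61 at such levels, but 0.41 under normexp. Cox6a1, the widely expressed partner, did not share the pattern, with levels of 7.40 in P4, 7.08 in P3, 7.51 in P2 and 7.54 in P1. Its difference of P3 minus P1 was -0.46, and 0.37 after quantile normalization.

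Some markers of other cells, but not all, were also far higher in P3. Besides the dendritic cell and class II markers given above, a list of 9 genes of plasmacytoid dendritic cells, chosen after the values of Cox6a2 were seen, had 7 genes well above background in P4, 9 in P3, 6 in P2 and 6 in P1. Its median level was -1.39 in P4, 2.35 in P3, -3.20 in P2 and -2.0 in P1. Its summed signal was 80.5, 79.9, 82.3 and 78.0 in P4, P3, P2 and P1. Siglech, a surface receptor of these cells, was at 5.63 in P4, 4.34 in P3, 5.77 in P2 and 5.59 in P1 and so did not follow the list's median. Pacsin1, at 3.74, 3.64, 3.46 and 3.69 in P4, P3, P2 and P1, did not stand apart in P3. The same held for Bst2, at 3.41, 3.94, 3.73 and 3.90. Of 11 genes of skeletal and heart muscle, also chosen after the values were seen, 2 were well above background in P4, 3 in P3, 2 in P2 and 2 in P1. Muscle creatine kinase (Ckm), myoglobin (Mb) and the myosin genes Myh1, Myh2 and Myh4 were not well above background on any array. The part of other cell types in the Cox6a2 level of P3 was not tested.

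**Figure D4:**
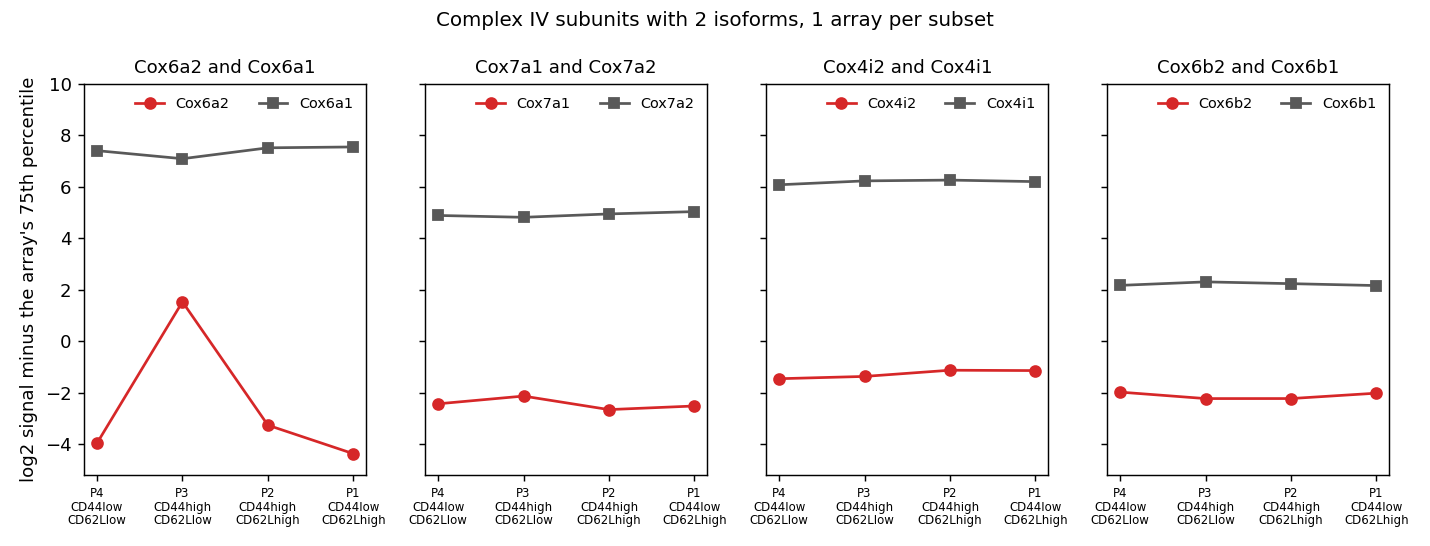
Level (log2 signal minus the array's 75th percentile, vertical axis) in P4, P3, P2 and P1 (horizontal axis) of 4 tissue-restricted complex IV subunits (red) and their widely expressed partners (grey). Cox6a2 stands at -3.96 in P4, 1.53 in P3, -3.26 in P2 and -4.37 in P1, whereas the other 7 genes run nearly level; heights of different genes are not comparable.

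No other tissue-restricted isoform stood out in P3 to that degree. Cox7a1, the heart and muscle isoform of subunit VIIa, was at -2.43 in P4, -2.13 in P3, -2.66 in P2 and -2.52 in P1. Its range of 0.52 rested on a difference of P3 minus P2 that was 0.12 under normexp and 0.66 in the authors' values. Its partner Cox7a2 was at 4.88 in P4, 4.81 in P3, 4.94 in P2 and 5.03 in P1. Cox4i2, the isoform known from lung and low oxygen, had levels of -1.46 in P4, -1.37 in P3, -1.13 in P2 and -1.14 in P1. Its difference of P4 minus P2 was -0.33 and stayed between -0.35 and -0.16 over the scalings. Cox6b2, the testis isoform of subunit VIb, was at -1.98 in P4, -2.23 in P3, -2.23 in P2 and -2.02 in P1, and Cox6b1 was at 2.17, 2.30, 2.23 and 2.16. Ndufa4l2, known to be induced by low oxygen, Cox7b2 and Cox8c, known from testis, and Cox8b, known from heart and muscle, were not well above background on any array.

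The remaining pairs compared phenotypes of memory and effector cells with each other and with naive cells. For P2 minus P1 the median of the members was -0.03, beside -0.06 for all genes, and the interquartile range was 0.13, against 0.32. This was the narrowest of the 6 comparisons for members. Of the members 1 was 1.5-fold higher in P2, Cox6a2, which was not under normexp, and 0 were lower, where 8.21% of all genes were higher and 6.2% lower. Uqcrfs1 (-0.26) and Ndufa2 (-0.24), an accessory subunit of complex I, followed Cox7a2l at the low end. For P3 minus P1, 1 member was 1.5-fold higher, Cox6a2, and 5 were lower, Cox7a2l, Atp5mpl, Uqcrfs1, Ndufb11 and Ndufa6, where 17.5% of all genes were higher and 18.9% lower. For P3 minus P2, 1 was higher, Cox6a2, and 2 were lower, Atp5mpl and Cox7a2l, where 16.1% of all genes were higher and 15.1% lower. The 5 genes lower in P3 than in P1 were past 1.5-fold neither after quantile normalization nor in the authors' values, where the count was 0. These comparisons share arrays, so their counts are not independent.

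The promoters of the members were searched for the binding motifs of NRF1 and of GABPA (NRF2), factors known for their part in the transcription of respiratory chain genes. The motifs were GCGCANGCG for NRF1 and CCGGAAG for GABPA, on both strands, in the 250 bases before the start of each gene in RefSeq (GRCm38.p6). Of 71 members with a window, 14 (19.7%) held the NRF1 motif, against 8.0% of 17492 protein-coding genes, and 12 (16.9%) held the GABPA motif, against 10.2%. Both stood in 1 window in 4 members, Cox6a1, Sdhd, Atp5h and Atp5l (5.63%), against 1.24% of all genes. These windows are printed here with that of Cox7a2l, the member with the widest range among those with a window, which held neither motif. They were chosen after the values were seen. Capitals mark the motifs. Those of GABPA and the NRF1 site of Atp5l are printed as the reverse complement, and the first NRF1 site of Cox6a1 matches on both strands.
Cox6a1, chr5:115348959-115349208, minus strand: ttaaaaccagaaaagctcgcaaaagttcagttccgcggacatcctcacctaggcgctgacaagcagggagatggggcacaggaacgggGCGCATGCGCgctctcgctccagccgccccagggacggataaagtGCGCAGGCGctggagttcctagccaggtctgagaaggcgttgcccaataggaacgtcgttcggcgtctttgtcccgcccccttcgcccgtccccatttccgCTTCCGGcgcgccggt
Sdhd, chr9:50603850-50604099, minus strand: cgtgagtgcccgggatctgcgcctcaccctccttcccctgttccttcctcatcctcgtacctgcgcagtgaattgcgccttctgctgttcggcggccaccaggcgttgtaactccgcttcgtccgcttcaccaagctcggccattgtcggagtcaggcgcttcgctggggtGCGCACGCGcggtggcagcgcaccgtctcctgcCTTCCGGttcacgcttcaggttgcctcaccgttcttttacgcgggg
Atp5h, chr11:115419920-115420169, minus strand: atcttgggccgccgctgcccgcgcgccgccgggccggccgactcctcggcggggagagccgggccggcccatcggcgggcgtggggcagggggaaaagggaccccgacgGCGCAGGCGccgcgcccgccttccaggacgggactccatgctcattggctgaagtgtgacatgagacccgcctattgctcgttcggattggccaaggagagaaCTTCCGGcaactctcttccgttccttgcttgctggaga
Atp5l, chr9:44920743-44920992, minus strand: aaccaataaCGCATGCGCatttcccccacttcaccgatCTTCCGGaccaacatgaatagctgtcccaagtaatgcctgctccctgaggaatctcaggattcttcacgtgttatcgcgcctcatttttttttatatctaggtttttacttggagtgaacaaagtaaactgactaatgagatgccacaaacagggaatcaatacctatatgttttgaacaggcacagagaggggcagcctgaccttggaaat
Cox7a2l, chr17:83514334-83514583, minus strand: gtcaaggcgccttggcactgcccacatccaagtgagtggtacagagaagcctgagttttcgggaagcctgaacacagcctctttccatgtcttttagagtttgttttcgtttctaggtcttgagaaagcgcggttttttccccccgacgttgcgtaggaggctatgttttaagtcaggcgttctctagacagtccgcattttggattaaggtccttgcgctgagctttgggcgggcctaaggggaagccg

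Cox6a1 had NRF1 sites starting 162 and 117 bases before the gene's start and a GABPA site starting 16 bases before it. In Sdhd the NRF1 site started at 79 and the GABPA site at 46 bases, in Atp5h at 141 and 38 bases, and in Atp5l at 241 and 212 bases before the start. The ranges of these genes over the arrays were 0.46 for Cox6a1, 0.14 for Sdhd, 0.09 for Atp5h and 0.57 for Atp5l, against 1.04 for Cox7a2l. Members with a window that were above background on every array were split by motif. The median range was 0.33 for the 22 with either motif and 0.25 for the 44 with neither, so that a narrow range was not limited to genes with a motif. A match is a description of letters in the window.

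Genes that build, serve or regulate the complexes were counted in the same way. Of the assembly factors, 5 of 16 for complex I, 2 of 4 for complex II, 0 of 5 for complex III, 8 of 24 for complex IV and 2 of 5 for complex V spanned at least 1.5-fold over the arrays, where 41.3% of all genes did. For mtDNA expression it was 5 of 14, for electron carriers and transport 4 of 15, for the tricarboxylic acid cycle 2 of 19 and for regulators 2 of 11. Timmdc1, which assembles the membrane arm of complex I, was at 1.72 in P4, 0.89 in P3, 1.64 in P2 and 1.67 in P1, so that P3 stood below the other subsets. Lrpprc, which stabilises mitochondrial mRNAs, was at 4.17 in P4, 3.35 in P3, 3.95 in P2 and 4.06 in P1. Atpif1, the inhibitor of the ATP synthase, went the other way, with levels of 3.74 in P4, 4.56 in P3, 3.59 in P2 and 3.66 in P1. Gpd2, which feeds electrons from glycerol 3-phosphate to ubiquinone, was at 0.58 in P4, 1.13 in P3, -0.34 in P2 and -0.11 in P1, with both CD62Llow subsets above both CD62Lhigh subsets. Idh2, the mitochondrial isocitrate dehydrogenase that uses NADP, was at 3.78 in P4, 2.44 in P3, 3.35 in P2 and 4.29 in P1. For Timmdc1, Lrpprc, Atpif1, Gpd2 and Idh2 the sign of every difference with P3 held under all 5 scalings.

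Among the regulators, Nrf1 was at 2.06 in P4, 1.98 in P3, 1.99 in P2 and 2.26 in P1, and Gabpa at 0.33, 0.51, 0.33 and 0.55. Both ranges, 0.28 and 0.22, were of the size of the members' own median range. Ppargc1a, a coactivator of mitochondrial biogenesis, was not well above background on any array. Pprc1, a related coactivator, was at 2.40 in P4, 1.61 in P3, 2.29 in P2 and 2.35 in P1. Myc was at 3.28 in P4, 2.11 in P3, 3.46 in P2 and 3.54 in P1. Pprc1 and Myc were the 2 regulators that spanned 1.5-fold, with P3 the lowest array for both under all 5 scalings.

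Genes with several probes gave a check within the arrays. Of the 17 members with more than 1 probe above background on all arrays, the probes differed in sign in 2 for P3 minus P1, 1 for P3 minus P2, 4 for P4 minus P3, 5 for P4 minus P1, 4 for P4 minus P2 and 6 for P2 minus P1. The widest gap between probes of a gene was 0.48, for P3 minus P1, so that gaps between probes were of the size of many of the differences described. Spots in locally bright areas stood behind the P4 and P3 levels of Atp5d, the P3 level of Cox5a, the P2 levels of Ndufs1, Ndufa7, Atp5j and Atp5k and the P1 levels of Uqcrfs1, Cox4i1 and Cox7c. Ndufb4 has close relatives by name in Ndufb4b and Ndufb4c, and its probe may not tell their transcripts apart.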

How the data were processed

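RNA was reverse transcribed with random primers and labelled with Cy3 for 1-colour Agilent arrays, per the labels' protocols. The authors used Agilent Feature Extraction 11.0.1.1 to obtain spot intensity, per the submitters' processing notes; the processed signal is corrected for background and spatial trend and is not scaled between arrays. The authors' deposited table gives log2 values of 26188 probes with identical sorted values, and a median of 8.85, in every column. From these values it was read as quantile normalized, and the labels name no tool for it.

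Levels were log2 processed signal minus log2 of the array's 75th percentile over non-control spots. Outlier spots (122 to 152 per array) were left out and repeated spots averaged. Through a GRCm38.p6 gene table, RefSeq accessions named 32994 of 56605 probes (58.3%). The probe with the highest mean stood for its gene. Pairs used genes above background on either array, and values below background were lifted to the array's lowest signal above it. Counts used a limit of 1.5-fold, with 2-fold as an alternative, and were tested on simulated data with known changes. The alternatives tried were quantile normalization, median scaling on probes detected by all arrays, normexp with offset 50, the authors' values, averaging a gene's probes, keeping outlier spots, requiring detection by both arrays of a pair, removing filter and floor, and leaving out locally bright areas. Normexp took median signals, because a column of mean signals was not used here. Bright areas were spots with at least 2 to 4 others, by array, within 32 position units that exceeded every other array at least 2-fold.

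The members, gene lists and tests were chosen with earlier results of these data known. The text names the core subunits, the isoforms with their partners, the 3 members of each complex with the widest range, and the 3 highest and lowest per pair. Other members and list genes were named after their values were seen, and some genes that the rule covers are not reported here. The count over the arrays, the pairing of arrays by CD62L and CD44, the lists of plasmacytoid dendritic cells, muscle and sorting markers, the promoter windows and the comparison without P3 were added after seeing the data. Python 3.11.15 was used with numpy 2.4.6, pandas 2.3.3, scipy 1.17.1 and matplotlib 3.10.9.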

Additional observations from a re-analysis of the deposited data

Results flagged for a closer look

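Ndufa5, an accessory subunit of complex I, and Sdhc, a membrane anchor of complex II, differed in opposite directions between CD62Llow and CD62Lhigh cells at the 2 levels of CD44, by more than the spot noise of 0.18 each time. For Ndufa5, P4 minus P1 (CD44low cells) was 0.24 and P3 minus P2 (CD44high cells) was -0.40. These values are from the probe with the highest mean. On a second Ndufa5 probe P4 was at 4.94 and P1 at 4.81, closer than the spot noise, so it did not meet the criterion. For Sdhc, P4 minus P1 was -0.25 and P3 minus P2 was 0.22. All 4 signs held under the 5 scalings. Of the 81 members compared these 2 met the criterion, and with 1 array per subset the difference was not tested. The share of all genes that would meet it was not counted, so the 2 cannot be set against it.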

How the results depend on the processing

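Quantile normalization and the authors' processed values changed the medians that involve P3. P4 minus P3 was -0.044 and -0.023 under them, P3 minus P1 was 0.041 and 0.044, and P3 minus P2 was 0.089 and 0.081. P4 minus P1 moved to 0.031 and 0.039, and P4 minus P2 moved to 0.048 after quantile normalization. Cox7a2l had 0.103 for P3 minus P2 after quantile normalization. The count of members at least 1.5-fold apart over the arrays was 4 after normexp, 3 after quantile normalization, 4 after scaling to the median, 2 in the authors' values and 1 without the P3 array. Members with both CD62Llow arrays below both CD62Lhigh arrays were 41, but 11 after quantile normalization and 11 in the authors' values, and those above were 6, but 27 and 26 under the same settings. By CD44, those below were 17, but 7 and 7. The cause of these changes was not tested. For medians and these counts, 58 of the other comparisons with an alternative kept their value within spot noise, or a count within 1.5 times. For counts per pair and the single members in this tally, 448 did, 126 moved and 1, Cox7a2l above, was counted as reversed. The tally understates reversals among members. Over the 5 scalings 35 of the 81 members changed sign for P3 minus P1. Atp5a1, for example, went from -0.41 to 0.28 after quantile normalization. With the filter on low signal removed, the members past 1.5-fold for P3 minus P1 were 9 lower, where the 4 genes added were not well above background on any array. No paired analysis was possible because each subset is 1 array. The number of arrays limits the precision, and dim probes such as that of Cox6a2 carry the widest spot noise.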
